A study of Homo sapiens with 2 samples.

Results

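The genes described here are 8 components of the apoptotic protease machinery: the initiator caspases CASP2, CASP8 and CASP9, the apoptosome scaffold APAF1, the inhibitor antagonist DIABLO, and the inhibitor of apoptosis genes XIAP, BIRC2 and BIRC3. They were listed by name and looked up among the 58174 gene identifiers of the deposited table, where all 8 were found. The table held 2 libraries from PC3, an established human prostate cancer cell line. The control library was made from PC3 cells that received a control siRNA (small interfering RNA), and the other from PC3 cells that received an siRNA against POH1, the proteasome deubiquitinase encoded by PSMD14. Both libraries share the cell line and the transfection, and the sources used here do not give the siRNA sequences, the dose or the time after transfection. With 1 library per group there was no replicate error, so no test between conditions was made, and what follows compares these 2 libraries only.

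Caspases are cysteine proteases that cleave after aspartate. Initiator caspases are activated on a scaffold and then cleave the effector caspases, which dismantle the cell. In the mitochondrial pathway, released cytochrome c lets APAF1 assemble into the apoptosome, which activates caspase 9. In the death receptor pathway, FADD recruits caspase 8 to ligand-bound receptors, where the caspase-like protein encoded by CFLAR holds it in check. XIAP blocks caspases directly, whereas the cellular inhibitors encoded by BIRC2 and BIRC3 act mainly as ubiquitin ligases in tumour necrosis factor signalling, and DIABLO (also called SMAC) leaves the mitochondrion to displace caspases from the inhibitors.

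Values were deposited as TPM, a relative transcript abundance that is scaled by transcript length, so levels can be compared between genes. Each column totals close to the fixed sum of the unit (999955 TPM for control siRNA, 999968 TPM for POH1 siRNA), so read depth is unknown and no counting interval can be given. PSMD14 stood at 50.9 TPM with control siRNA and 35.1 TPM with POH1 siRNA, which is 69.0% of the control. This 1.45-fold lower value lay within the 1.5-fold limit used below, and 10.7% of all genes had a difference as low or lower. The log2 difference of PSMD14 was -0.52, and -0.24 with the GC adjustment described below. The 5 epithelial markers KRT8, KRT18, KRT19, EPCAM and CDH1 lay between 111 and 1734 TPM in both libraries. Of the prostate androgen response genes, KLK2 and KLK3 were listed at 0, while TMPRSS2 was at 9.89 and 12.9 TPM. Of markers of other cell types, the leukocyte gene PTPRC was listed at 0 and at 0.0568 TPM, the endothelial gene PECAM1 was at 4.90 and 3.88 TPM, and the fibroblast collagen gene COL1A1 was at 30.9 and 47.8 TPM. The part of these markers in the results below was not tested. Mitochondrial genes held 16.2% of all TPM in the control library and 13.1% in the POH1 siRNA library.

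The 8 genes spanned a wide range of levels. In the control library DIABLO was the most abundant, followed by CASP8, CASP2, CASP9, XIAP, BIRC2, BIRC3 and APAF1. In the POH1 siRNA library DIABLO was again first, CASP9 moved from rank 4 to rank 2, CASP8 moved from rank 2 to rank 4, and APAF1 and BIRC3 exchanged the last places. Without replicates, no spread is available to say which neighbours in these orders differ.

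**Figure D1:**
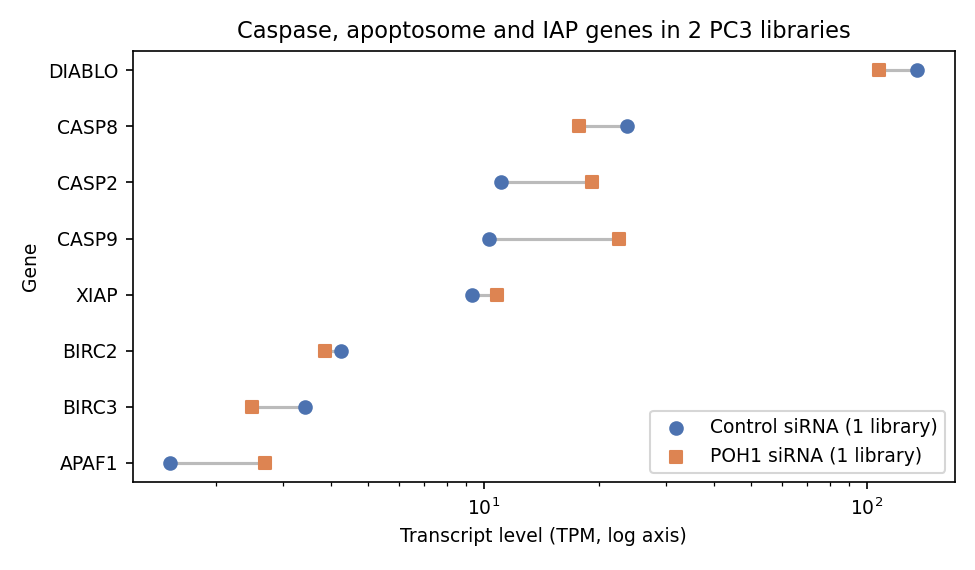
Transcript level in TPM (log axis) of each of the 8 genes in the control siRNA library (circles) and the POH1 siRNA library (squares), 1 library each, with a line joining the values of a gene. CASP9 (10.3 and 22.5 TPM) and CASP2 (11.1 and 19.2 TPM) lie to the right in the POH1 siRNA library, CASP8 (23.6 and 17.7 TPM) and DIABLO (136 and 108 TPM) to the left.

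Differences are given as log2(TPM + 1) with POH1 siRNA minus log2(TPM + 1) with control siRNA. They were computed for 15008 genes averaging at least 1 TPM, and all 8 genes passed this filter. A gene was called higher or lower when this difference reached 1.5-fold, a log2 size of 0.58. Of the 8 genes, 2 were called higher (CASP9 and CASP2), 0 were called lower and 6 lay within 1.5-fold. Over all genes 10.2% were called higher and 8.88% were called lower. The median log2 difference of the 8 genes was 0.05, beside 0.12 over all genes, and it ran from -0.40 for CASP8 to 1.06 for CASP9. Of the 8 differences, 4 were above 0 and 4 were below, while 61.2% of all genes were above 0. With the GC adjustment described below, 6 were above 0 and 2, CASP8 and DIABLO, were below. On that scale 66.9% of the 14983 genes with a GC content were above 0. In a list of 8, each gene accounts for 12.5 percentage points, so the share of 25.0% called higher against 10.2% of all genes rests on 2 genes and is read no further. The median of the 8 genes was 0.35 with the GC adjustment, beside 0.15 over all genes. Under the 3 other scalings it was between -0.071 and -0.018, beside 8.8e-05 to 0.060 over all genes.

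**Figure D2:**
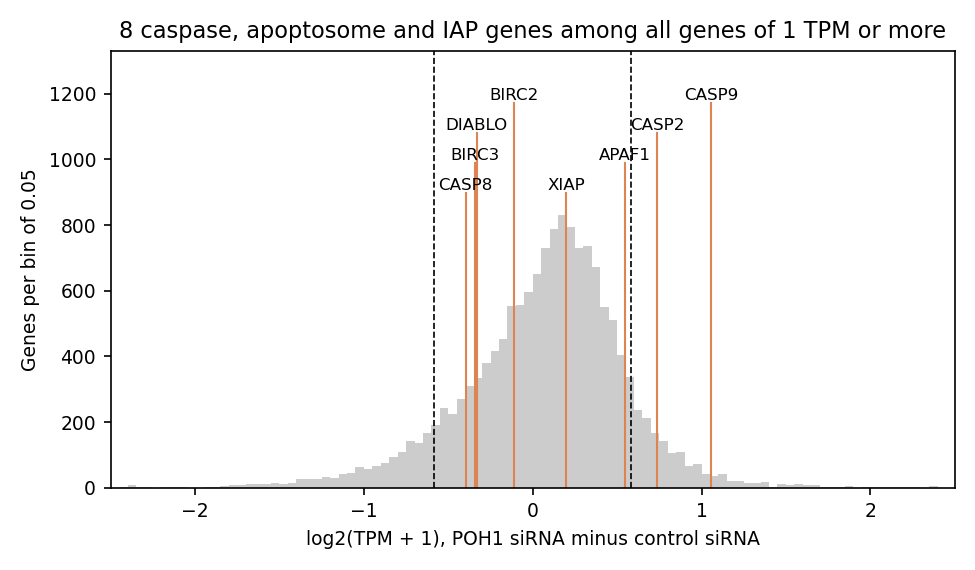
Histogram of the log2(TPM + 1) difference, POH1 siRNA minus control siRNA, over all genes averaging at least 1 TPM (bins of 0.05; 29 genes lie beyond the axis), with vertical lines at the 8 genes and dashed lines at 1.5-fold. CASP9 (1.06) and CASP2 (0.74) lie beyond the upper dashed line, APAF1 (0.55) just short of it, and CASP8, BIRC3, DIABLO and BIRC2 below 0.

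Among the initiator caspases, CASP9, CASP2 and CASP8 did not differ in the same direction. CASP9 encodes the caspase that the apoptosome activates. It was at 10.3 TPM with control siRNA and 22.5 TPM with POH1 siRNA, a 2.19-fold higher value and a log2(TPM + 1) difference of 1.06. Of all genes tested, 1.85% had a difference as high or higher. CASP9 was the one gene of the 8 past 2-fold, which 2.15% of all genes were in that direction. CASP2 encodes the caspase of the PIDDosome, which responds to DNA damage and surplus centrosomes. It was at 11.1 TPM with control siRNA and 19.2 TPM with POH1 siRNA, a 1.73-fold higher value and a log2 difference of 0.74. For CASP2, 5.76% of all genes had a difference as high or higher. Neither CASP9 nor CASP2 shares exon sequence, on either strand, with another annotated gene of 1 TPM or more.

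CASP8 encodes the initiator caspase of death receptors. It was at 23.6 TPM with control siRNA and 17.7 TPM with POH1 siRNA, a 1.33-fold lower value within the 1.5-fold limit, with a log2 difference of -0.40. As low or lower a difference was found in 14.9% of all genes. CASP8 was thus the most abundant of the 3 initiator caspases in the control library and the least abundant in the POH1 siRNA library. Within each library, which scaling between libraries cannot alter, the ratio of CASP9 to CASP8 was 0.436 in the control library and 1.27 in the POH1 siRNA library. The ratio of CASP2 to CASP8 was 0.471 and 1.09. These genes differ in GC content (CASP9 56.1%, CASP2 48.9%, CASP8 44.0%), and the ratios are not adjusted for it. With the GC adjustment described below, the log2 difference was 0.98 for CASP9, 0.85 for CASP2 and -0.09 for CASP8.

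The 250 bases before the first listed start site of CASP9 and CASP2 are shown because these were the 2 genes called higher. They come from the RefSeq table of build GRCh38.p14; the deposited values were made on hg19, so the coordinates belong to the sequences alone. Capitals mark every match to the GC box, GGGCGG, on either strand, with overlapping matches joined.
CASP9, chr1:15524216-15524465, minus strand: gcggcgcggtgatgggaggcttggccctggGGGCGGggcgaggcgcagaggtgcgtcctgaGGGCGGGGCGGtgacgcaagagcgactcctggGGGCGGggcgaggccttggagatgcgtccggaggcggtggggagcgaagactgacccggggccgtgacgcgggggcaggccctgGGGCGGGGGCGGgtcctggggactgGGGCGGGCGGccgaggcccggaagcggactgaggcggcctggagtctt
CASP2, chr7:143288101-143288350, plus strand: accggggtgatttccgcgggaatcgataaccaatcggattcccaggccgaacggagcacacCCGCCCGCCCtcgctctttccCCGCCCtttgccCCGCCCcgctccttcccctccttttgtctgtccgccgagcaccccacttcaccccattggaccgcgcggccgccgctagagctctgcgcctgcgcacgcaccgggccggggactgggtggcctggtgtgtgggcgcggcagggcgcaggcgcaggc

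The CASP9 window held 8 GC box matches, spread along its length as repeats of a GC-rich unit. The CASP2 window held 4, clustered on the opposite strand in the part farther from the start. Across the same 250 bases of the first listed window of 27305 RefSeq genes, 42.3% held at least 1 match, 7.82% held 4 or more and 0.619% held 8 or more. CASP8, APAF1, DIABLO and XIAP each had 1 match in their first listed window, and BIRC2 and BIRC3 had 0. The window of CASP9 was 77.6% G or C and that of CASP2 was 71.2%, beside a median of 58.0% over these genes. A match to these letters is a description of the sequence and shows no binding.

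APAF1, the scaffold of the apoptosome, was the least abundant of the 8 genes in the control library, at 1.52 TPM, and was at 2.68 TPM in the POH1 siRNA library. Its ratio of TPM values, 1.77, was no smaller than the 1.73 of CASP2. On the log2(TPM + 1) scale, however, which shrinks differences of low genes, it came to 0.55 and stayed just within 1.5-fold. With a pseudocount of 0.1 in place of 1 the difference of APAF1 was 0.78 and was called higher, and with a pseudocount of 5 it was 0.24. Over all genes, 2101 were called higher with a pseudocount of 0.1, beside 1535 with a pseudocount of 1. The ratio of CASP9 to APAF1 was 6.78 in the control library and 8.39 in the POH1 siRNA library. It is not adjusted for GC content, which was 56.1% for CASP9 and 40.9% for APAF1. With the GC adjustment described below, the log2 differences of these genes were 0.98 and 0.93. CYCS, which encodes the cytochrome c that triggers apoptosome assembly, was at 33.3 and 40.2 TPM.

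DIABLO was by far the most abundant of the 8 genes in both libraries. It was at 136 TPM with control siRNA and 108 TPM with POH1 siRNA, a 1.26-fold lower value within the 1.5-fold limit (log2 difference -0.33). As low or lower a difference was found in 17.7% of all genes. Part of DIABLO overlaps B3GNT4 (4.36 and 4.50 TPM) on the opposite strand, and reads of such genes cannot be told apart where strand was not used. HTRA2, which encodes another mitochondrial protein that antagonises the inhibitors, was at 36.8 and 45.3 TPM. HTRA2 overlaps the more abundant gene AUP1 on the opposite strand (287 and 321 TPM), so its value is uncertain for the same reason. The ratio of HTRA2 to DIABLO was 0.271 in the control library and 0.421 in the POH1 siRNA library.

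None of the inhibitors of apoptosis among the 8 genes was called. XIAP, the direct caspase inhibitor, was at 9.30 TPM with control siRNA and 10.8 TPM with POH1 siRNA (log2 difference 0.20). BIRC2, which encodes cIAP1, was at 4.23 and 3.85 TPM (log2 difference -0.11). BIRC3, which encodes cIAP2, was at 3.41 and 2.48 TPM, a 1.38-fold lower value (log2 difference -0.34). XIAP was thus above its control level, and BIRC2 and BIRC3 were below theirs. A difference as high as that of XIAP or higher was found in 41.2% of all genes. Differences as low or lower were found in 30.5% of all genes for BIRC2 and 17.1% for BIRC3. With the GC adjustment, BIRC2 (0.26) and BIRC3 (0.070) were above 0, but BIRC3 was below the adjusted median of 0.15 over all genes. The summed level of these 3 genes was 16.9 TPM with control siRNA and 17.2 TPM with POH1 siRNA, and within that sum the ratio of XIAP to BIRC2 and BIRC3 was 1.22 and 1.71. This ratio is not adjusted for GC content (XIAP 45.8%, BIRC2 42.4%, BIRC3 38.8%).

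BIRC3 is a textbook target of NF-kB, and the 250 bases before its start site are shown because they hold 2 matches to the NF-kB (kB) consensus, marked in capitals. The sequence is from the same RefSeq table of build GRCh38.p14.
BIRC3, chr11:102317234-102317483, plus strand: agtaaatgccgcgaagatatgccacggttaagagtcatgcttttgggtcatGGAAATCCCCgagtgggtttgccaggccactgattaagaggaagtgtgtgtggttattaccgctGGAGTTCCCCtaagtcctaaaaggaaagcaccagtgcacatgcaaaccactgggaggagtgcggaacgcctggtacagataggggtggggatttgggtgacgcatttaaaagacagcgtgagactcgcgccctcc

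The matches in the BIRC3 window read GGAAATCCCC and GGAGTTCCCC. At least 1 such match was present in these 250 bases for 11.9% of the 27305 genes and 2 or more in 1.89%. The first listed windows of the other 7 genes, BIRC2 included, held 0. No binding was measured. The BIRC3 transcript was at 72.6% of its control level in the POH1 siRNA library, which lay within the 1.5-fold limit. Any link between the matches and this level was not tested.

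Set against their antagonist, the inhibitors formed a small pool. DIABLO was 8.01 times the summed level of XIAP, BIRC2 and BIRC3 in the control library and 6.27 times in the POH1 siRNA library, a log2 change of -0.35 in the ratio. Against XIAP alone the ratio was 14.6 and 9.94. With BIRC6, a giant inhibitor gene that DIABLO also antagonises, in the sum, it was 4.45 and 3.29. All 3 forms of the ratio were lower in the POH1 siRNA library. They share DIABLO, itself within the 1.5-fold limit, and XIAP, so they are not separate observations. The ratio of CASP9 to XIAP was 1.11 in the control library and 2.08 in the POH1 siRNA library. These are ratios of transcripts, and the proteins were not measured. None of the ratios given here, above or below, is adjusted for GC content.

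The GC content of transcripts moved with the difference across the whole table. For the 10114 genes averaging at least 5 TPM, Spearman's rho was 0.46, across genes that share the same 2 libraries and are not replicates. CASP9 had a GC content of 56.1%, CASP2 48.9%, DIABLO 49.9%, XIAP 45.8%, CASP8 44.0%, BIRC2 42.4%, APAF1 40.9% and BIRC3 38.8%, beside a median of 51.0% over all genes. Genes under 45% GC had a median log2 difference of -0.17, and 4.87% of them were called higher and 20.1% lower. Genes at 55% GC or more had a median of 0.28, with 14.7% called higher and 1.82% lower. The GC adjustment subtracted the running median of genes of like GC content. It then added back the median difference of all genes of at least 5 TPM. Adjusted values therefore centre above 0, with a median of 0.15 over all genes. On this scale CASP9 was at 0.98 and CASP2 at 0.85, both still past 1.5-fold. APAF1, at 0.55 before, was at 0.93 and passed it too. The running median came from genes of at least 5 TPM, and APAF1, BIRC2, BIRC3, CASP10 and FAS average less. Their adjusted values are therefore uncertain and may be shifted too far upward. CASP5, listed at 0 in both libraries, came to 0.30 in this way. Over the 14983 genes with a GC content, 12.6% were called higher and 5.19% lower after this adjustment. CASP8 came to -0.09, DIABLO to -0.24 and XIAP to 0.44 with this adjustment.

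**Figure D3:**
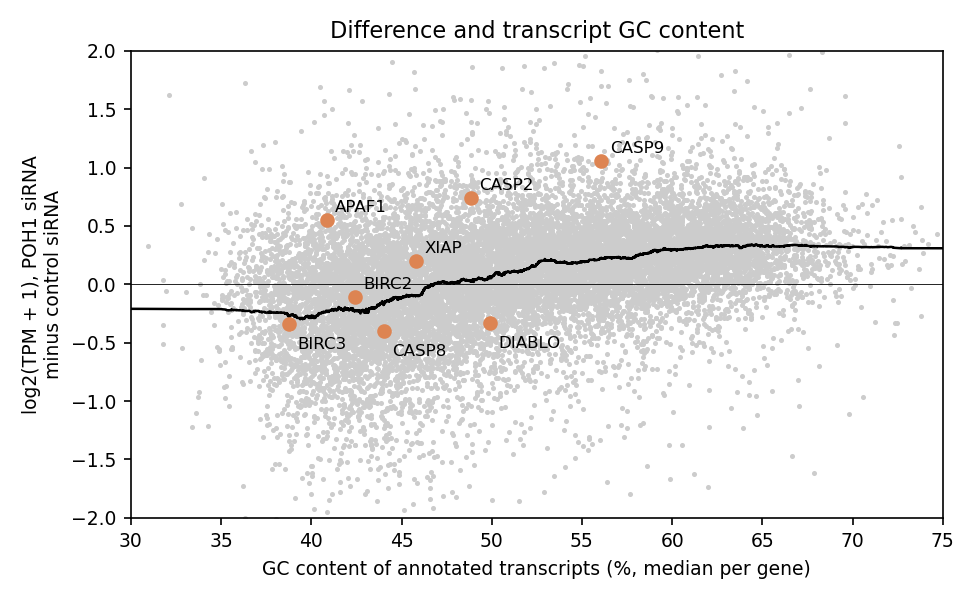
Log2(TPM + 1) difference, POH1 siRNA minus control siRNA, against the GC content of each gene's annotated transcripts (grey, genes averaging at least 1 TPM; 113 lie outside the axes or have no GC content), with the running median of genes of at least 5 TPM (black) and the 8 genes (orange). CASP9, CASP2, APAF1 and XIAP lie above the line, DIABLO and CASP8 below it, and BIRC3 close to it.

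The pathway around these genes was described with a list of 34 further genes, of which 27 passed the filter. Of the 27, 3 were called higher (11.1%, beside 10.2% of all genes), 3 were called lower (11.1%, beside 8.88%) and 21 lay within 1.5-fold. The median log2 difference was 0.10, beside 0.12 over all genes. These shares are near those of all genes, and the list as a whole is not read as different from them. After GC adjustment 4 genes were called higher (TNFRSF1A, PIDD1, MAP3K14 and CYCS, the last at 0.62) and 0 lower, beside 12.6% and 5.19% of all genes. PIDD1 (0.60), MAP3K14 (0.61) and CYCS lay close to the limit of 0.58, and their adjusted values include the median that was added back.

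The effector caspase gene CASP6 was at 35.5 TPM with control siRNA and 23.3 TPM with POH1 siRNA, 1.52-fold lower and on the limit itself (log2 difference -0.59). CASP6 overlaps MCUB (18.5 and 15.9 TPM) on the opposite strand.

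Of the remaining caspases, CASP10, a death receptor caspase and chromosomal neighbour of CASP8, was at 4.32 and 2.31 TPM, a 1.87-fold lower value (log2 difference -0.69). CASP1, which matures interleukin 1 beta, was at 11.9 and 7.17 TPM, a 1.66-fold lower value (log2 difference -0.66). CASP4, the cytosolic lipopolysaccharide sensor, was the most abundant of the 9 caspase genes examined, at 97.9 and 84.1 TPM. CASP14, a caspase known from the epidermis, was next at 61.5 and 49.0 TPM, and CASP5 was listed at 0 in both libraries. Of the 8 of these that passed the filter, 2 were called higher (CASP2 and CASP9), 3 were called lower (CASP1, CASP6 and CASP10) and 3 lay within 1.5-fold. These are 25.0% and 37.5% of 8 genes, beside 10.2% and 8.88% of all genes. The 3 lower caspases had a GC content between 43.7% and 46.1%, and none was past 1.5-fold after GC adjustment (CASP10 -0.45, CASP1 -0.34, CASP6 -0.30). With a pseudocount of 5 these 3 genes were likewise within 1.5-fold. Of the summed TPM of these 9 genes, CASP9 held 4.02% in the control library and 9.99% in the POH1 siRNA library, and CASP2 held 4.34% and 8.52%.

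The partners of caspase 2 in the PIDDosome were both above their control level, as were 61.2% of all genes. PIDD1, the platform protein, was at 14.1 TPM with control siRNA and 24.9 TPM with POH1 siRNA, with a log2 difference of 0.77 that was called higher. PIDD1 had a GC content of 66.0%, and its difference was 0.60 with the GC adjustment, close to the limit. CRADD, the adaptor, was at 11.2 and 14.4 TPM (0.33) and lay within 1.5-fold. PIDD1 overlaps the ribosomal protein gene RPLP2 on the opposite strand, which was far more abundant (1251 and 1308 TPM), so the value of PIDD1 is open to doubt unless strand was used.

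In the death receptor complex, 1 of 8 genes was called higher (12.5%, beside 10.2% of all genes) and 0 lower, so the share was near that of all genes. TNFRSF1A, the main receptor for tumour necrosis factor, was at 86.0 TPM with control siRNA and 153 TPM with POH1 siRNA (log2 difference 0.83). FAS was at 4.25 and 2.86 TPM (-0.44, and -0.09 with the GC adjustment). It overlaps ACTA2 on the opposite strand, which was more abundant (5.87 and 4.43 TPM). The TRAIL receptors TNFRSF10A (20.3 and 22.8 TPM) and TNFRSF10B (51.6 and 54.4 TPM) were close to their control levels. They overlap AC100861.1 (8.99 and 6.73 TPM) and RHOBTB2 (11.8 and 15.0 TPM) on the opposite strand. The adaptor FADD was at 70.7 and 76.1 TPM, and RIPK1 at 22.5 and 21.4 TPM. FADD overlaps AP000879.1 (2.46 and 1.69 TPM) on the opposite strand. CFLAR, which restrains caspase 8, was at 19.0 and 23.5 TPM, so that the ratio of CASP8 to CFLAR was 1.24 in the control library and 0.753 in the POH1 siRNA library.

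Among partners of the inhibitors in ubiquitin signalling, 1 of the 6 that passed the filter was called higher (16.7%, beside 10.2% of all genes), a share that rests on 1 gene. MAP3K14, which encodes the NF-kB inducing kinase that BIRC2 and BIRC3 mark for degradation together with TRAF2 and TRAF3, was at 20.5 TPM with control siRNA and 35.5 TPM with POH1 siRNA (log2 difference 0.76). It overlaps MAP3K14-AS1 (7.83 and 12.2 TPM) on the opposite strand. TRAF2 was at 20.8 and 29.7 TPM (0.49), TRAF3 at 13.8 and 16.0 TPM (0.20), and MAP3K7, the TAK1 kinase, at 10.1 and 6.89 TPM (-0.50), all within 1.5-fold. With median and trimmed mean scaling MAP3K7 was called lower, at -0.62 and -0.61. TRAF1 was under the filter at 0.418 and 0.306 TPM. BIRC6 was the only other inhibitor gene of the list to pass the filter, at 13.5 and 15.6 TPM, while NAIP, BIRC7 and BIRC8 had means under 1 TPM. The substrates and nuclease of the effector caspases lay within 1.5-fold: PARP1 was at 260 and 273 TPM, DFFA at 30.7 and 28.1 TPM and DFFB at 6.996 and 7.55 TPM. DFFA overlaps PEX14 on the opposite strand, which was more abundant (37.1 and 47.1 TPM).

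**Figure D4:**
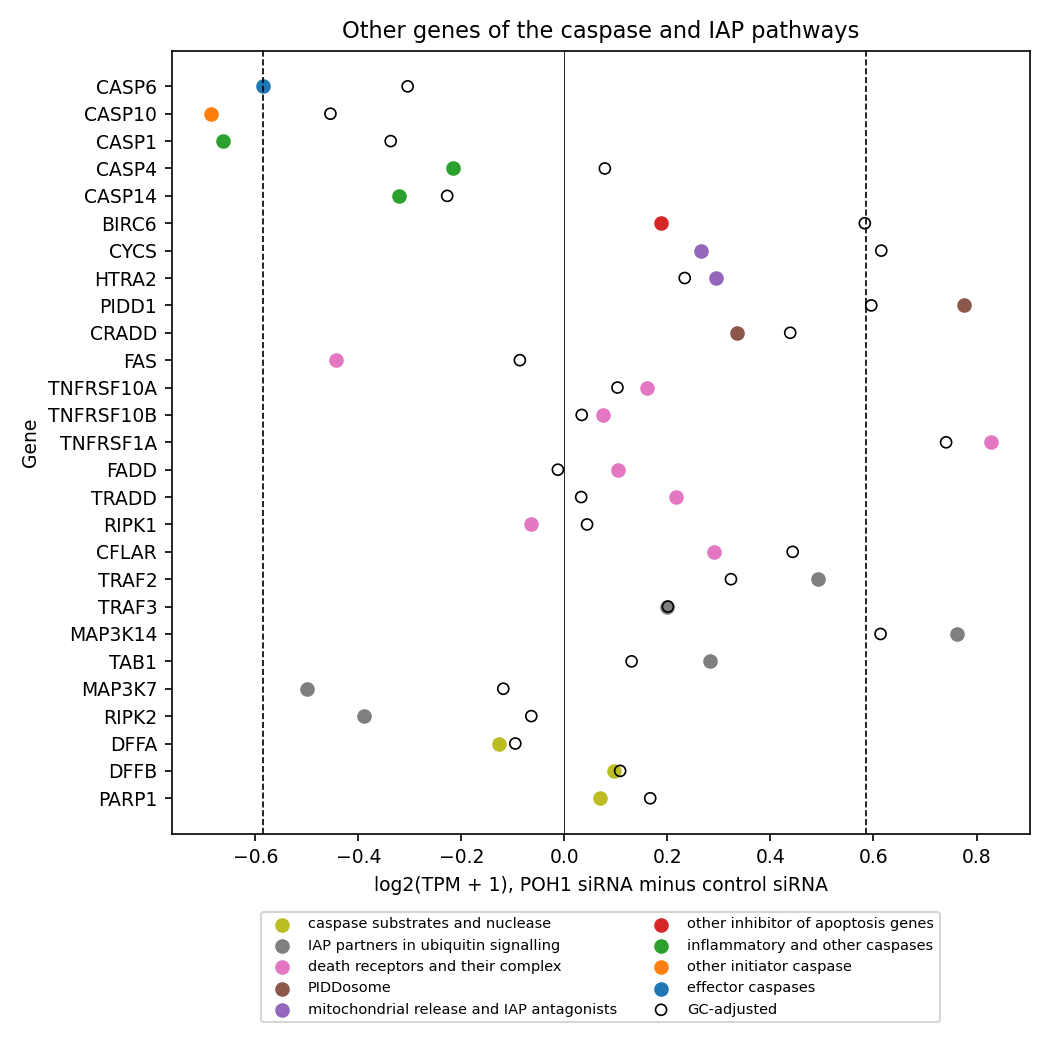
Log2(TPM + 1) difference, POH1 siRNA minus control siRNA, of the 27 further pathway genes that passed the filter, coloured by role, with GC-adjusted values as open circles and dashed lines at 1.5-fold. TNFRSF1A, PIDD1 and MAP3K14 lie beyond the upper line with and without the adjustment, CYCS only with it, and CASP6, CASP1 and CASP10 reach the lower line only without it.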

How the data were processed

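RNA was measured in 2 PC3 libraries, 1 per siRNA. The tools CASAVA and HISAT2 and the build hg19 are named per the submitters' processing notes; their versions, the annotation, the tool behind the values, strand use and depth are not stated in the sources used. The authors deposited TPM per Ensembl gene, a unit scaled by transcript length to a fixed total per library. Of 58174 identifiers, 57392 were given a symbol from a name table by identifier. Gene types, GC content (median over a gene's transcripts) and exon overlaps came from GENCODE release 29, which annotates GRCh38, so none of its coordinates are printed. Differences used log2(TPM + 1) over genes averaging at least 1 TPM and a call at 1.5-fold. The GC adjustment subtracted a running median over 501 genes of at least 5 TPM. It then added back the median difference of all genes of at least 5 TPM. The software was Python 3.11.15, numpy 2.4.6 and pandas 2.3.3. The calculations were tested on simulated data. The 8 genes, the 34 pathway genes, the promoter motifs and the alternatives were chosen with earlier results of these data known. Named genes were all 8, every pathway gene past 1.5-fold, and others where a role was described; some genes of the lists are not reported here. No test was made, because each group holds 1 library. Alternatives were 2 other pseudocounts, 3 scalings, GC adjustment, other filters and a 2-fold limit.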

Additional observations from a re-analysis of the deposited data

How the results depend on the processing

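CASP9 and CASP2 were past 1.5-fold under both other pseudocounts, all 3 other scalings and GC adjustment (CASP9 0.85 to 1.12, CASP2 0.59 to 0.85). CASP2 was on the limit itself with a pseudocount of 5 (0.586, beside a limit of 0.585). It was close to the limit with median scaling (0.61) and trimmed mean scaling (0.62). The scaling factors between the libraries had a log2 size of 0.14 for the median ratio, 0.13 for the trimmed mean and 0.07 when mitochondrial genes and the top 50 by abundance were left out; single differences of log2(TPM + 1) moved by other amounts. The median of the 8 genes was then -0.071, -0.061 and -0.018, below 0, beside 8.8e-05, 0.0097 and 0.060 over all genes. It was 0.35 with GC adjustment, beside 0.15 over all genes. Over the 5 genes that passed a filter at 5 TPM, which leaves out APAF1, BIRC2 and BIRC3, it was 0.20. GC adjustment put BIRC2 at 0.26 and BIRC3 at 0.070, above 0, with BIRC3 below the adjusted median of 0.15 over all genes. The adjustment was built on genes of at least 5 TPM, so it is uncertain for APAF1, BIRC2 and BIRC3. At 2-fold, 1 of the 8 genes was called higher, and 0 pathway genes were called in either direction. Pathway genes called lower numbered 0 with GC adjustment and 0 with a pseudocount of 5, and 4 with median or trimmed mean scaling, which added MAP3K7. Lower calls over all genes moved the same way, from 1333 to 778 with GC adjustment and 668 with a pseudocount of 5. They came to 1845 with median scaling and 1799 with trimmed mean scaling, so the pathway counts are read no further. The log2 change in the ratio of DIABLO to its inhibitors was -0.55 for XIAP alone. Over all genes, the 1535 called higher became 960 with median scaling, 1002 with trimmed mean scaling, 636 with a pseudocount of 5, 952 with a filter at 5 TPM and 323 at 2-fold. The 1333 called lower became 778 with GC adjustment, 668 with a pseudocount of 5, 855 with a filter at 5 TPM and 439 at 2-fold. With median scaling 1845 were called lower, so the share of higher among called genes was 34.2% in place of 53.5%, and with GC adjustment it was 70.8%. With a pseudocount of 0.1, 2101 genes were called higher and 1770 lower. Over protein-coding genes, chosen after the data were seen, 1141 were higher and 1012 lower. Beyond what each setting changes by construction, the cause was not tested. No gene of the 8 shares same-strand exons with a gene above 0 TPM, so the planned sum was not run. Depth is unknown, which limits the low genes APAF1, BIRC2 and BIRC3 most. No paired analysis was possible because each group holds 1 library.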
